A study of Homo sapiens with 12 samples.

Results

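The enzymes that carry carbon from acetyl-CoA to squalene were followed at the RNA level in a mesothelioma line treated with a drug, with radiation, with both or with neither. The set was defined by name: ACAT2, HMGCS1, MVK, PMVK, MVD, IDI1, FDPS, GGPS1 and FDFT1, each a single entry in a table of 58735 genes. FPKM is a read number scaled to gene length and to the size of the library. All 9 averaged 1 FPKM or more over the 12 libraries, the filter on low values, which 13038 genes passed in all.

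The cells were MSTO-211H, a human mesothelioma line in long use, kept as a suspension culture with EGF, bFGF and heparin; the submitters describe them as mesothelioma-initiating. There were 4 groups of 3 libraries. In Combo, cells had received 10 µM of a compound labelled QTP and 4 Gy of radiation. In Rx they had received 10 µM QTP and a sham exposure, in IR vehicle and 4 Gy, and in Con vehicle and a sham exposure. By its title the study is about dopamine receptor inhibition together with radiotherapy, and the design asks what QTP and radiation do alone and jointly. Irradiation followed the drug by a day, and RNA was taken 48 h after irradiation. Titles give only the words Combo, Rx, IR and Con, so Rx and Combo were matched to the QTP arms of the design text by elimination. All groups are a single cell line. The labels do not state whether a group's libraries were grown as separate cultures, so each p-value reflects library-to-library spread that may be technical.

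The mevalonate pathway condenses acetyl-CoA units into mevalonate, phosphorylates and decarboxylates mevalonate to isopentenyl diphosphate, and joins these isoprene units into farnesyl diphosphate. Farnesyl diphosphate is a branch point: joined head to head it becomes squalene, the precursor of cholesterol, and otherwise it feeds geranylgeranyl diphosphate, dolichol, ubiquinone and the lipid anchors of small GTPases. Genes of the pathway are known targets of the transcription factor encoded by SREBF2, which is released from the endoplasmic reticulum when membrane sterol is low and which works at promoters together with NF-Y and Sp1.

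Whole reads recovered from the deposited FPKM numbered 14925895 to 18630958 per library in Combo and Rx and 13188257 to 16269195 in IR and Con, so depth overlapped but ran higher in libraries with QTP. Mitochondrial genes took 6.73% to 10.5% of the reads of a library. Mesothelial markers were present in part: 5 of 12 passed the filter (MSLN, CALB2, KRT8, KRT18 and THBD) and 4 averaged under 0.1 FPKM (UPK3B, PDPN, KRT19 and ITLN1). Markers of other cell types (immune, endothelial, fibroblast) were low, 11 of 15 having a mean under 0.1 FPKM, among them PTPRC, PECAM1 and DCN. COL1A1, COL3A1, LUM and PDGFRB passed, with a summed level over the 15 genes of 15.3 to 18.5 FPKM in Combo, 16.7 to 18.2 in Rx, 15.4 to 17.8 in IR and 16.5 to 17.8 in Con. In such bulk RNA, fewer cells of a kind and less RNA per cell cannot be told apart.

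Promoter sequences are shown for the enzyme genes with large and with small differences after QTP, as described further on. RefSeq (GRCh38.p14) gave a window of 300 bases, 250 before and 50 after the transcript start, for 7 of the 9 genes, ACAT2 and FDFT1 having no entry matched. HMGCS1, MVD and FDPS had among the largest differences, and their windows held CCAAT, the letters bound by NF-Y, on either strand. These letters are in capitals below, as CCAAT or, read on the opposite strand, ATTGG. PMVK and GGPS1 had the smallest differences with QTP averaged over both radiation arms. Their windows held no CCAAT, so they are all in lower case. MVK and IDI1, which also had a window, are not printed and did not follow this split, as given further on. Windows are chr5:43313363-43313662 for HMGCS1, chr16:88663042-88663341 for MVD and chr1:154936670-154936969 for PMVK on the minus strand, and chr1:155308616-155308915 for FDPS and chr1:235326966-235327265 for GGPS1 on the plus strand. Each is written 5′ to 3′ on the strand of its gene.
HMGCS1: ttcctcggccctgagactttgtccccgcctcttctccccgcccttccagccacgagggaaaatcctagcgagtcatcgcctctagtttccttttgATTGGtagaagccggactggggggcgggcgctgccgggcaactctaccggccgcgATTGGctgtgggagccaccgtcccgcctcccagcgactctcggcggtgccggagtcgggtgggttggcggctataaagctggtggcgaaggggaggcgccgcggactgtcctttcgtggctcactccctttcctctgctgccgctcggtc
MVD: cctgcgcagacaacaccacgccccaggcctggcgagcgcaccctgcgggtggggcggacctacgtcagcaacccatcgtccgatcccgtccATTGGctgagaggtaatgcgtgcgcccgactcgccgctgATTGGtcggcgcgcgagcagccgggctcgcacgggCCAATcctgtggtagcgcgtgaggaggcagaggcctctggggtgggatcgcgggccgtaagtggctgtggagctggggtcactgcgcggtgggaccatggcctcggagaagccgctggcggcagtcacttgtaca
FDPS: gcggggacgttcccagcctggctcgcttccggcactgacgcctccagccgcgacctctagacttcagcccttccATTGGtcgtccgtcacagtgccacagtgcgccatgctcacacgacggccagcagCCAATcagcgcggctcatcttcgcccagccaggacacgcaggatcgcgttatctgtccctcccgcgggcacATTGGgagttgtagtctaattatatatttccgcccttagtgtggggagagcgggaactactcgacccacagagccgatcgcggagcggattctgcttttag
PMVK: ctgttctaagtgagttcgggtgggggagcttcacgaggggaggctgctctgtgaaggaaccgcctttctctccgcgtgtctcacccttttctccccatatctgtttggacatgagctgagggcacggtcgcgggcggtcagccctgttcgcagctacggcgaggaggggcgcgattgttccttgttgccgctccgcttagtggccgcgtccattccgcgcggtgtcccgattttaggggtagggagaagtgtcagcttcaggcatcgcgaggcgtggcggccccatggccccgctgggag
GGPS1: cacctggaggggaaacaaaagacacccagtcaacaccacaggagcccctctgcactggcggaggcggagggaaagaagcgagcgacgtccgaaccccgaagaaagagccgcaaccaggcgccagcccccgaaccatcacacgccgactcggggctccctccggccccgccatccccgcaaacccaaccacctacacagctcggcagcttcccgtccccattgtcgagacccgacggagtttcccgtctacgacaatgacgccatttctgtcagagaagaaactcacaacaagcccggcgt

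Letters of 4 kinds were searched on both strands. CCAAT stood in 4 of the 7 windows (HMGCS1 2 matches, MVK 5, MVD 3 and FDPS 3), against 35.7% of all 27305 promoters of the same length. IDI1, whose difference with QTP was also among the larger (0.68), held none. MVK held the most matches, and its difference (0.46) was below that of IDI1. Whether matches go with the size of a difference was not tested. GGGCGG, the letters of Sp1, stood in 6 of the 7 windows, GGPS1 being without it, against 44.6% of all promoters. Letters of a sterol regulatory element, CACCCCAC or TCACNCCAC (which share letters where N is C), stood in 0 of the 7 windows, against 3.42% of all promoters for either form, 2.72% for CACCCCAC and 1.15% for TCACNCCAC. Other forms of a sterol regulatory element were not searched, so these windows may hold such an element in other letters. A match or its lack describes only these windows and says nothing of binding. The RefSeq start lay 70 to 539 bases from the gene start given in the expression table for 6 genes and 7534 bases from it for IDI1, so the IDI1 window lies away from the start that goes with its expression values.

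**Figure D1:**
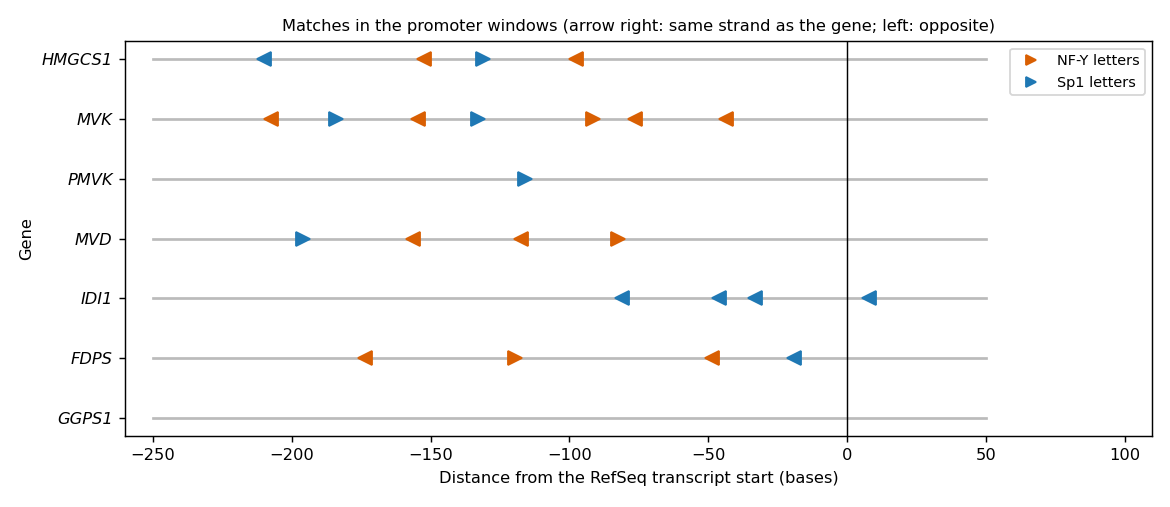
Matches of CCAAT (orange) and GGGCGG (blue) in the 7 promoter windows, by distance in bases from the RefSeq transcript start on the x axis, with 1 gene per line. Arrows to the right are on the strand of the gene and arrows to the left on the opposite strand; CCAAT lies before the start in HMGCS1, MVK, MVD and FDPS, and the GGPS1 line holds no match.

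In Con cells the pathway was unevenly expressed per unit of length. FDFT1 averaged 56.4 ± 4.17 FPKM in Con (SD, n = 3), IDI1 31.6 ± 5.55, FDPS 21.5 ± 3.38, HMGCS1 21.1 ± 4.75, PMVK 11.7 ± 0.828, MVD 11.2 ± 2.20, MVK 6.88 ± 1.00, ACAT2 6.06 ± 1.07 and GGPS1 2.79 ± 0.0983. Neighbours in that order overlapped in their Con libraries for FDPS and HMGCS1, for PMVK and MVD, and for MVK and ACAT2. For the other neighbours the Con ranges were apart, and in all 12 libraries the gene with the higher Con mean was the higher of the pair. FDFT1, whose enzyme commits farnesyl diphosphate to squalene, thus had the highest FPKM of the set in these cells. GGPS1, whose enzyme takes farnesyl diphosphate to geranylgeranyl diphosphate, had the lowest. FPKM depends on the length given for each gene, from 1280 bases for PMVK to 6480 for MVK. The order of FPKM therefore need not be that of transcript numbers. Levels rested on 3658 to 8736 reads per library for FDFT1 and on 136 to 259 for GGPS1.

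The opening steps of the pathway had higher mean levels with QTP in both radiation arms. ACAT2 (ENSG00000120437, chr6:159760328-159779055, plus strand, hg38) encodes the cytosolic thiolase that joins acetyl-CoA units to acetoacetyl-CoA. It had 8.56, 9.40 and 11.2 FPKM in Combo libraries 1, 2 and 3, against 4.89, 5.74 and 5.31 FPKM in the IR libraries. In the Rx libraries it had 8.60, 15.2 and 8.64 FPKM, against 6.02, 7.15 and 5.01 FPKM in the Con libraries. Every library with QTP lay above every library without it, and Rx 2 stood well above the other Rx libraries. The last 558 bases of ACAT2 overlap TCP1, a chaperonin subunit gene on the opposite strand with a mean of 36.8 FPKM; whether counting used strand is not given, so reads of the overlap cannot be assigned. TCP1 differed by -0.12 (log2, adjusted p = 0.637 by limma) with QTP. ACAT1, the gene of the mitochondrial thiolase, averaged 14.3 FPKM and differed by -0.23 (log2, adjusted p = 0.313 by limma) with QTP.

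HMGCS1 (ENSG00000112972, chr5:43289395-43313512, minus strand) encodes cytosolic HMG-CoA synthase, which adds a further acetyl unit. Its levels were 31.8, 49.1 and 54.5 FPKM in Combo, against 20.7, 20.0 and 15.7 FPKM in IR. In Rx they were 25.2, 57.2 and 33.8 FPKM, against 21.6, 25.6 and 16.2 FPKM in Con. Combo lay wholly above IR, whereas Rx 1 (25.2) was just under Con 2 (25.6). HMGCS1 had the widest span of the 9 genes, the highest library being 3.64 times the lowest.

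Among the enzymes that turn mevalonate into isopentenyl diphosphate, MVK and MVD had higher means with QTP and PMVK did not. MVK (ENSG00000110921, chr12:109573255-109598117, plus strand) encodes mevalonate kinase. It was at 7.90, 9.17 and 8.95 FPKM in Combo, against 5.63, 5.90 and 4.90 FPKM in IR. Values in Rx were 7.40, 11.4 and 8.25 FPKM, against 5.95, 7.94 and 6.75 FPKM in Con. Combo and IR were apart, while Rx 1 lay under Con 2. MVK shares its start region with MMAB, a cobalamin enzyme gene transcribed the other way, whose start is 619 bases off and which overlaps it by 620 bases. MMAB averaged 9.68 ± 0.866 FPKM in Combo, against 8.57 ± 0.793 in IR, and 11.0 ± 1.76 in Rx, against 9.04 ± 0.608 in Con (SD, n = 3 each); its difference with QTP was 0.20 (log2, SE 0.08, adjusted p = 0.387 by limma).

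PMVK (ENSG00000163344, chr1:154924734-154936991, minus strand) encodes phosphomevalonate kinase, the enzyme after MVK. It stood at 9.68, 11.0 and 8.66 FPKM in Combo, against 10.7, 13.2 and 14.5 FPKM in IR. Rx libraries had 11.7, 10.5 and 12.2 FPKM, against 10.8, 11.7 and 12.5 FPKM in Con. Its groups overlapped in both pairs, and it was the only gene of the 9 with a lower mean with QTP. Under sham exposure its difference was -0.02 (log2, SE 0.11), and it was above 0 without Rx 2 (0.035) or without Con 3 (0.023). Of the 9 it was also the only one whose highest library was not Rx 2 but IR 3. PMVK rested on 199 to 278 reads per library.

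MVD (ENSG00000167508, chr16:88651935-88663161, minus strand) encodes mevalonate diphosphate decarboxylase, which yields isopentenyl diphosphate. Combo libraries had 15.4, 21.0 and 24.8 FPKM, against 11.2, 9.89 and 9.16 FPKM in IR. Rx libraries had 14.1, 31.9 and 18.0 FPKM, against 11.2, 13.4 and 9.05 FPKM in Con. No library with QTP fell within the range of those without, but Rx 1 (14.1) was close to Con 2 (13.4). IDI1 (ENSG00000067064, chr10:1039152-1049170, minus strand) encodes the isomerase that makes dimethylallyl diphosphate from isopentenyl diphosphate. It reached 41.4, 55.0 and 56.8 FPKM in Combo, against 29.1, 30.5 and 30.7 FPKM in IR. In Rx it had 39.6, 68.7 and 44.0 FPKM, against 28.6, 38.0 and 28.2 FPKM in Con. Again the libraries with QTP were all above those without, Rx 1 being nearest to Con 2. The paralogue IDI2 averaged 0.210 FPKM.

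Farnesyl diphosphate synthase, encoded by FDPS (ENSG00000160752, chr1:155308748-155320666, plus strand), joins the isoprene units and is the enzyme that nitrogen-containing bisphosphonates inhibit. FDPS was at 27.6, 32.1 and 37.1 FPKM in Combo, against 16.0, 18.3 and 18.6 FPKM in IR. It was at 26.7, 47.1 and 30.1 FPKM in Rx, against 21.3, 25.0 and 18.3 FPKM in Con. Libraries with QTP and without did not overlap. RUSC1-AS1, an RNA gene on the opposite strand, overlaps FDPS by 3804 bases, and reads of the overlap cannot be told apart. RUSC1-AS1 averaged 5.46 ± 1.46 FPKM in Combo, against 2.26 ± 0.292 in IR, and 4.87 ± 1.91 in Rx, against 2.65 ± 0.592 in Con (SD, n = 3 each), a difference with QTP of 0.81 (log2, SE 0.16, adjusted p = 0.118 by limma). The 8 FDPS pseudogenes in the table averaged at most 0.0707 FPKM each.

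GGPS1 and FDFT1 take farnesyl diphosphate in different directions, and both had higher means with QTP. The ratio of mean FPKM in Rx over Con was similar, at 1.31 for GGPS1 and 1.33 for FDFT1. In Combo over IR it was 1.11 for GGPS1 and 1.38 for FDFT1. GGPS1 (ENSG00000152904, chr1:235327350-235344532, plus strand) encodes geranylgeranyl diphosphate synthase. It had 3.34, 3.33 and 3.46 FPKM in Combo, against 2.76, 3.27 and 3.08 FPKM in IR, and 3.57, 3.73 and 3.66 FPKM in Rx, against 2.79, 2.89 and 2.69 FPKM in Con. Its span over the 12 libraries was the narrowest of the set, at 1.39 times. Libraries with and without QTP did not overlap, but Combo 2 (3.33) was only just above IR 2 (3.27). GGPS1 overlaps ARID4B, a gene on the opposite strand with a mean of 2.88 FPKM, by 870 bases, and an entry of TBCE on its own strand, with a mean of 0.518 FPKM, by 15963 bases, so its reads are uncertain to that extent. FDFT1 (ENSG00000079459, chr8:11795573-11839309, plus strand) encodes squalene synthase. It had 67.6, 77.1 and 74.3 FPKM in Combo, against 50.1, 56.0 and 52.3 FPKM in IR. In Rx it had 63.3, 92.2 and 69.5 FPKM, against 55.1, 61.1 and 53.0 FPKM in Con. These libraries did not overlap either, though Rx 1 and Con 2 were close.

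**Figure D2:**
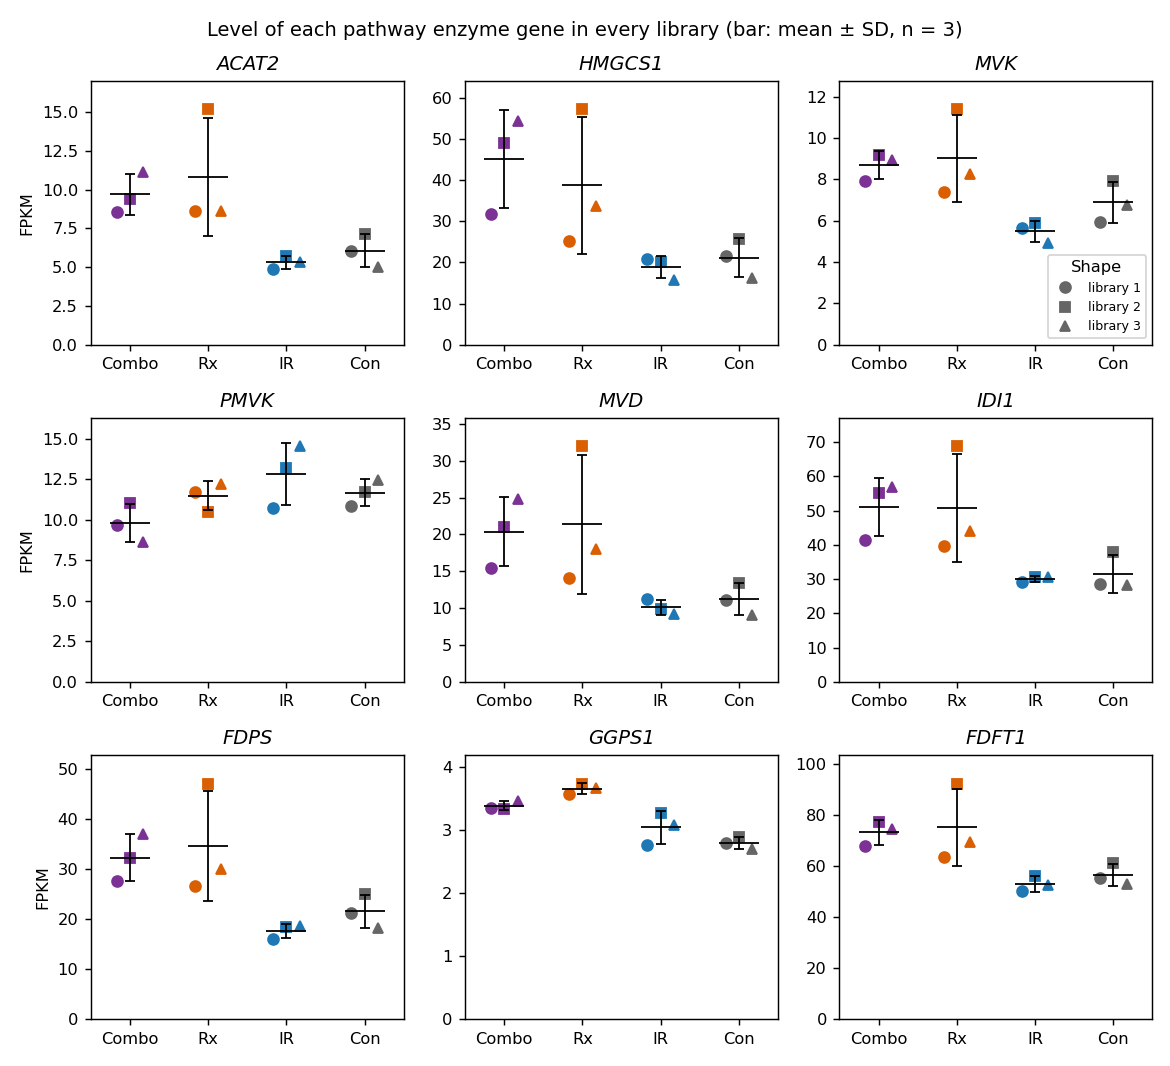
FPKM of each of the 9 genes (y axis, from 0) in the libraries of Combo, Rx, IR and Con (x axis); shapes mark libraries 1, 2 and 3 and bars the mean ± SD (n = 3). Rx 2 is the highest library for every gene but PMVK, and PMVK alone has a lower mean in Combo than in IR and in Rx than in Con.

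Whether QTP changed these genes was asked by averaging its difference over both radiation arms (Combo minus IR and Rx minus Con), with limma on log2(FPKM + 1) and p-values adjusted over all 13038 genes. None of the 9 passed an adjusted p of 0.05, where 0.0844% of all genes passed as higher (11 genes) and 0.00767% as lower (1 gene). At an unadjusted p under 0.05, 8 of the 9 were higher, against 5.21% of all genes, and PMVK was lower, against 6.17% of all genes. In 6 of the 9 (ACAT2, MVD, IDI1, FDPS, GGPS1 and FDFT1) every library with QTP was above every library without, against 0.621% of all genes. The members' median difference was 0.68 (range -0.19 to 0.99), beside -0.0048 over all genes. Voom on the recovered reads, a count-based fit, called 5 of them higher (ACAT2, HMGCS1, IDI1, FDPS and FDFT1) and 0 lower, against 33 of all genes called in either direction (0.253%).

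HMGCS1 had the largest difference with QTP averaged, at 0.99 on the log2(FPKM + 1) scale (SE 0.20, adjusted p = 0.118 by limma). It ranked 10 of 13038 genes by size of the increase. MVD followed at 0.87 (SE 0.18, limma adjusted p = 0.122). ACAT2 and FDPS had the lowest adjusted p of the set (0.0788 each by limma), with 0.73 (SE 0.13 each). IDI1 differed by 0.68 (SE 0.14, limma adjusted p = 0.118), MVK by 0.46 (SE 0.10, limma adjusted p = 0.125) and FDFT1 by 0.42 (SE 0.09, limma adjusted p = 0.121). GGPS1 differed by 0.21 (SE 0.05, limma adjusted p = 0.153), and PMVK by -0.19 (SE 0.08, limma adjusted p = 0.419). By p, 8 of the 9 stood between rank 28 (ACAT2) and rank 94 (GGPS1) of 13038, and PMVK at rank 1139. HMGCS1, MVD, ACAT2, FDPS and IDI1 thus had larger estimates than MVK, FDFT1 and GGPS1; differences between genes were not tested.

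With QTP under sham exposure (Rx against Con), 8 of the 9 had a higher mean and an unadjusted p under 0.05, against 2.36% of all genes higher at that p. None passed the adjusted threshold by limma or by voom, nor did any of all genes by limma (0%). The ratio of mean FPKM was 1.90 for MVD, 1.83 for HMGCS1, 1.78 for ACAT2, 1.61 for IDI1 and FDPS, 1.33 for FDFT1, 1.31 for MVK and GGPS1 and 0.983 for PMVK. In 6 of the 9 (the same 6 as above) the Rx libraries lay above all Con libraries, against 4.60% of all genes. The median difference was 0.63 (all genes 0.0039), and 0.39 without library Rx 2. GGPS1 had the smallest p of the set here, with 0.30 (SE 0.07, limma adjusted p = 0.926).

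In irradiated cells (Combo against IR), 8 of the 9 again had a higher mean with QTP, in libraries that Rx against Con does not share. The labels do not say whether these were separate cultures. Levels of the 8 genes also varied together, as given further on, so they are not 8 separate results. The ratio of mean FPKM was 2.40 for HMGCS1, 2.02 for MVD, 1.83 for ACAT2 and FDPS, 1.70 for IDI1, 1.58 for MVK, 1.38 for FDFT1, 1.11 for GGPS1 and 0.764 for PMVK. At an unadjusted p under 0.05, 7 were higher, GGPS1 not among them, against 5.91% of all genes, and PMVK was lower, against 11.6% of all genes. All but PMVK had Combo libraries wholly above IR libraries, against 8.53% of all genes. The adjusted p ran between 0.165 and 0.372 by limma, and limma passed 0% of all genes; voom passed 0 members too. The median difference was 0.73, beside -0.01 over all genes. Without library IR 1, limma called HMGCS1 higher and PMVK lower, among 956 of all genes.

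Set against vehicle and sham exposure (Combo against Con), 8 of the 9 had a higher mean with both treatments, with ratios of 2.13 for HMGCS1, 1.82 for MVD, 1.62 for IDI1, 1.60 for ACAT2, 1.50 for FDPS, 1.29 for FDFT1, 1.26 for MVK, 1.21 for GGPS1 and 0.838 for PMVK. At an unadjusted p under 0.05, 7 genes were higher and 0 lower, against 5.49% of all genes higher. Combo libraries were wholly above Con libraries for 7 of the 9, all but MVK and PMVK, against 10.0% of all genes. By limma 0 members passed the adjusted threshold (p between 0.175 and 0.396) and 0% of all genes did, and by voom 0 members. This comparison shares the Combo libraries with Combo against IR and the Con libraries with Rx against Con, so its values are no separate evidence.

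**Figure D3:**
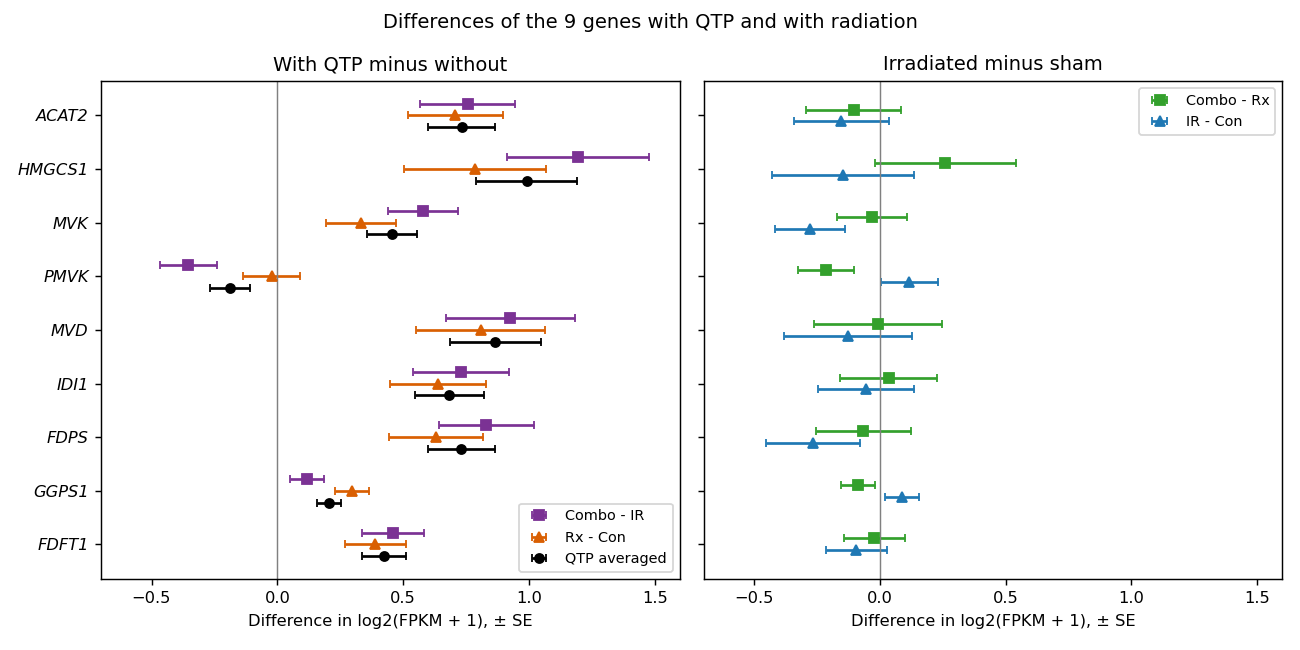
Differences of the 9 genes in log2(FPKM + 1) (x axis) with their standard errors, for libraries with QTP minus without (left) and irradiated minus sham (right). With QTP all genes but PMVK lie to the right of 0. Of the radiation differences, 7 of 9 lie left of 0 in IR - Con and 7 of 9 in Combo - Rx, none with an unadjusted p under 0.05 by limma.

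Radiation was asked about in the same way. In IR against Con, 7 of the 9 had a lower mean and PMVK and GGPS1 a higher one. Differences ran from -0.28 (MVK, SE 0.14) to 0.12 (PMVK, SE 0.11), with a median of -0.13, beside 0.01 over all genes. The median was -0.0024 without Con 2, -0.26 without Con 3 and -0.24 with values rescaled to TPM. None of the 9 had an unadjusted p under 0.05, where 6.86% of all genes did, and by limma 0% of all genes passed adjusted. MVK alone had its IR libraries wholly under Con, with 4.98% of all genes doing so. In Combo against Rx, differences ran from -0.21 (PMVK) to 0.26 (HMGCS1), with a median of -0.03, which was 0.15 without Rx 2, 0.03 without Combo 1 and -0.15 without Rx 1. None had an unadjusted p under 0.05, where 9.11% of all genes did, and by limma 0% of all genes passed adjusted. GGPS1 alone had its Combo libraries wholly under Rx, with 12.7% of all genes doing so. Voom passed 0 members in either comparison.

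The test of whether the QTP difference was another in irradiated cells is the interaction, (Combo minus IR) minus (Rx minus Con). It was largest for HMGCS1, at 0.41 (log2, SE 0.40), and lowest for PMVK, at -0.33 (SE 0.16, unadjusted p = 0.0607, adjusted p = 0.609 by limma). GGPS1 had -0.18 (unadjusted p = 0.0906 by limma). None of the 9 had an unadjusted p under 0.05, where 7.63% of all genes did, and by limma 0% of all genes, and by voom 0 members, passed adjusted. The members' median was 0.09, beside -0.03 over all genes, and changed sign without Rx 1 (-0.06) or Con 2 (-0.01). Over all alternatives it ran between -0.06 and 0.33 (without Rx 2), with 0.29 under TPM scaling and 0.23 without Combo 1. With 3 libraries a group, no difference of this size between the arms passed the test.

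Much of the spread was shared by the genes of the set. Rx 2 was the highest of the 12 libraries for 8 of the 9, and Rx 1 the lowest of the Rx libraries for 8. Con 2 was the highest Con library for 8, and Combo 1 the lowest Combo library for 7. Summed over the 9 genes, the level was 253 ± 35.3 FPKM in Combo, against 156 ± 6.03 in IR, and 255 ± 72.9 in Rx, against 169 ± 21.2 in Con (SD, n = 3 each), and Rx alone spanned 200 to 338. As a share of reads, the 9 genes took 912 to 1513 of every 1000000 reads in libraries with QTP and 642 to 897 in those without. These summed levels did not overlap between libraries with QTP and without, and depth also ran higher in the same libraries; its part in the result was not tested. Over the 12 libraries, each gene's log2 level correlated with the mean of the other 8 at r between 0.91 (HMGCS1 and MVK) and 0.99 (FDFT1) for 7 genes, with 0.80 for GGPS1 and -0.57 for PMVK. After subtracting group means, r was 0.84 to 0.97 for those 7 genes, 0.49 for GGPS1 and -0.26 for PMVK. These values describe 12 libraries that share treatment and library effects, and carry no p.

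**Figure D4:**
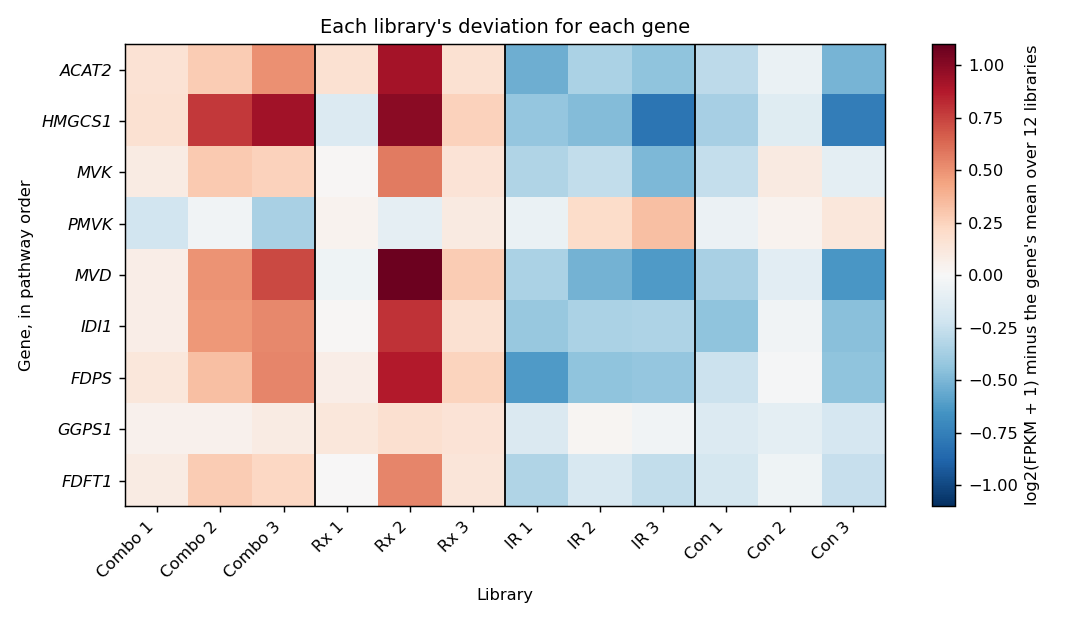
Each library's log2(FPKM + 1) minus the gene's mean over the 12 libraries, as colour (red above, blue below), with genes in pathway order on the y axis and libraries on the x axis. Rx 2 is red for 8 genes, and the PMVK row does not follow the others.

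Most enzymes further along sterol synthesis had higher means with QTP as well. Of 12 enzymes acting from squalene on, limma called 2 higher and 0 lower with QTP averaged: DHCR7, which makes cholesterol in its last step, by 0.93 (log2, SE 0.14), and SC5D, a sterol desaturase gene, by 0.42 (SE 0.07), both with an adjusted p of 0.0493. At an unadjusted p under 0.05, 11 of the 12 were higher, against 5.21% of all genes, and their median was 0.43. Of all genes, limma called 0.0844% higher and 0.00767% lower after adjustment. SQLE, which oxidises squalene and follows FDFT1 in the pathway, had 0.61 (SE 0.11, limma adjusted p = 0.0689). A further list mixed sterol-regulated genes outside synthesis with genes that control this regulation. Of its 11 measured genes, limma called STARD4, a sterol carrier gene, higher, by 0.58 (SE 0.08, adjusted p = 0.0493), and none lower. At an unadjusted p under 0.05, 6 were higher, against 5.21% of all genes, and the median over this mixed list was 0.20. INSIG1, whose protein holds the SREBF2 product in the endoplasmic reticulum, had 1.14 (SE 0.28, limma adjusted p = 0.180), and SREBF2 itself 0.34 (SE 0.10, limma adjusted p = 0.282). Calls of DHCR7 and SC5D were lost in 17 of 25 alternatives each and that of STARD4 in 14 of 25.

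Branches that leave the pathway before squalene had medians near 0, and genes around acetyl-CoA, which feed it, were mixed. Of 8 measured genes of acetyl-CoA supply and ketone bodies, limma called 0 with QTP averaged, and the median was -0.01. At an unadjusted p under 0.05, 3 were higher, against 5.21% of all genes, and 1 (ACAT1) lower, against 6.17%. ACLY, which makes cytosolic acetyl-CoA from citrate, had 0.53 (SE 0.09, limma adjusted p = 0.0517), and ACSS2, which makes it from acetate, 0.65 (SE 0.20, limma adjusted p = 0.285). The other gene higher at an unadjusted p, named after its value was seen, was the citrate carrier gene SLC25A1, with 0.17 (SE 0.07, limma adjusted p = 0.404). Of 13 measured genes of the dolichol and ubiquinone branches, limma called 0, with a median of -0.05. At an unadjusted p under 0.05, 2 were lower, against 6.17% of all genes. COQ5, COQ3 and COQ7, of ubiquinone synthesis, had -0.23, -0.20 and -0.13. Of 11 protein prenylation genes, limma called 0 and had 0 at an unadjusted p, with a median of -0.00059; ICMT and RCE1, which finish prenylated proteins, had -0.07 and -0.09, and ZMPSTE24 0.08. Whether these lists differ from the sterol enzymes was not tested.

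Genes of dividing cells, and some markers of the mesothelial lineage, had lower means with QTP. Of 15 mitosis genes, limma called 0 with QTP averaged, and the median was -0.25. At an unadjusted p under 0.05, 9 were lower, against 6.17% of all genes. CCNB1, KIF20A and TOP2A had -0.44, -0.39 and -0.37. In Rx against Con the median was -0.24, with 1 of 15 lower at that p, against 0.897% of all genes. In Combo against IR it was -0.28, with 3 of 15 lower, against 11.6% of all genes. Their summed level was 72.3 to 104 FPKM in Combo, against 108 to 123 in IR, and 93.5 to 152 in Rx, against 129 to 182 in Con. In IR against Con their median was -0.33, and 7 were lower at an unadjusted p under 0.05, against 3.17% of all genes. In Combo against Con the median was -0.68 and 15 of 15 were lower at that p, against 7.69% of all genes, and in Combo against Rx it was -0.39 and 12 of 15 were lower, against 6.30% of all genes; limma called 0 of them adjusted in these 3 comparisons. The mesothelial markers summed to 688 to 1033 FPKM in Combo, against 1027 to 1420 in IR. In Rx they summed to 938 to 1245 FPKM, against 1026 to 1300 in Con. Most of each sum came from the keratin genes KRT8 and KRT18. These averaged 476 and 549 FPKM over the 12 libraries, against 40.1 for MSLN and 20.2 for CALB2. Limma called 0 of 5 with QTP averaged. At an unadjusted p under 0.05, 2 were lower (KRT8 and KRT18, both -0.31), against 6.17% of all genes. CALB2 had -0.27, MSLN -0.20 and THBD 0.06. Of the 4 measured immune, endothelial and fibroblast markers limma called 0. LUM (0.28) was higher at an unadjusted p under 0.05, against 5.21% of all genes. The part of these lists in the result for the enzymes was not tested.

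**Figure D5:**
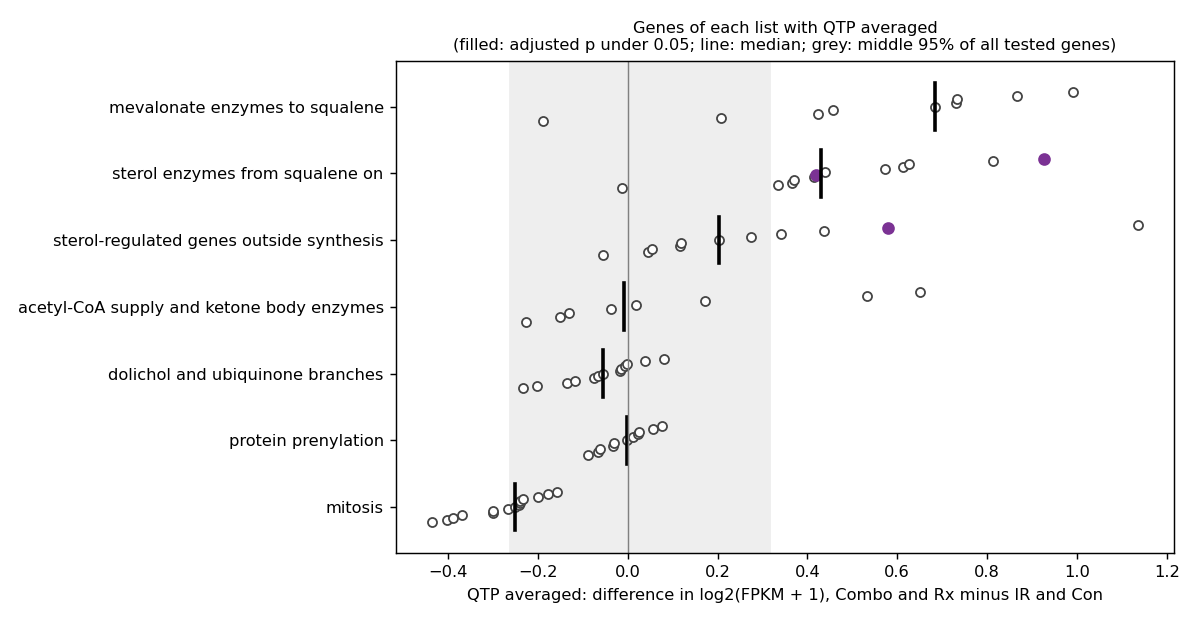
Difference in log2(FPKM + 1) with QTP averaged (x axis) for each measured gene of 7 lists (rows); filled points passed limma's adjusted p of 0.05, black lines are medians, and grey is the middle 95% of all genes tested. Points of the mevalonate and sterol enzymes lie mostly to the right of the grey band, those of prenylation lie within it and those of mitosis left of 0. The row of sterol-regulated genes also holds genes that control this regulation.

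Genes outside the set that followed it most closely were ranked by Pearson's r over the 12 libraries between their log2 level and the mean of the standardised members. The 8 highest protein-coding genes were NSDHL (r = 0.979), SQLE (0.973), HSD17B7 (0.971), MSMO1 (0.960), TMEM154 (0.959), INSIG1 (0.956), LSS (0.949) and ERG28 (0.946). NSDHL, SQLE, HSD17B7, MSMO1 and LSS encode sterol enzymes that act from squalene on. With QTP averaged, MSMO1 had 0.81 (log2, limma adjusted p = 0.0903), LSS 0.63 (0.121), HSD17B7 0.57 (0.125), TMEM154 0.53 (0.0574) and NSDHL 0.42 (0.115), and ERG28 0.52, with a limma adjusted p of 0.0493, a call lost in 17 of 25 alternatives. HSD17B7 shares sequence with a pseudogene in the table, so its level is uncertain to that extent. The ranking shares libraries and treatment with every difference given above and is a description only.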

How the data were processed

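The authors deposited FPKM values for 58735 genes in 12 libraries, with Ensembl identifiers, symbols, lengths and coordinates in 1 table. Per the submitters' processing notes the genome was hg38; for the aligner, counter, strand setting and library scale, the tool or value was not given in the sources used here. Multiplied by gene length, 100% of the FPKM above 0 came out as whole steps of 1 size per library (tolerance 0.01), and reads were recovered from these steps; 1 FPKM over 1 kb rests on 13.3 to 19.1 reads. Members were matched by symbol, and no symbol was ambiguous. Groups came from the titles. Replicates differed beyond sampling noise (chi-square per degree of freedom 7.09 to 39.9), and 0 value columns were left unused. Coordinates are as the table gives them.

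Levels were taken as log2(FPKM + 1), which understates changes of low genes, for genes averaging 1 FPKM or more. Limma 3.58.1 (R 4.3.3) fitted the group means of all 12 libraries, using a variance trend, two-sided tests and Benjamini-Hochberg adjustment over 13038 genes (threshold 0.05). There were 7 comparisons. The fit was tested on simulated data. The members, lists and tests were chosen with earlier results of these data known. Besides the members, the text names up to 3 genes per list with the smallest p with QTP averaged, the 8 genes most like the set and genes overlapping a member. Those overlapping genes that averaged under 1 FPKM are not named, apart from TBCE. The members do not cover every step of the pathway. Alternatives were a pseudocount of 0.1, a filter of 5 FPKM or none, TPM, median of ratios or quantile scaling, protein-coding genes only, the compared groups alone, library quality weights, no variance trend, a replicate block, voom on recovered reads, no IR 3 and Combo 3, and each library left out.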

Additional observations from a re-analysis of the deposited data

How the results depend on the processing

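Limma called 0 members higher and 0 lower in each of the 7 comparisons, and alternatives moved some of these counts. With QTP averaged, the members called higher numbered 8 with library quality weights (777 of all genes called, in place of 12), 5 with voom (33), 4 among protein-coding genes only (30), 2 at a mean of at least 5 FPKM (24) and 1 with quantile scaling (23). TPM scaling, median of ratios scaling, no variance trend and leaving out IR 3 and Combo 3 each called 0 of all genes. In Combo against IR, library quality weights called 7 members higher and 1 lower (4496 of all genes); that weighting ended with a convergence warning. Leaving out each library gave 0 to 1 members called higher and 0 to 1 lower in Combo against IR and 0 in the other comparisons, with 0 to 18 of all genes called with QTP averaged. The members' median with QTP averaged ran between 0.57 and 0.76 over all alternatives. PMVK in Rx against Con ran between -0.072 and 0.035 when a library was left out, changing sign. Of 1894 values of single genes under alternatives, 1737 kept direction and side of the threshold. A further 90 passed only in the alternative, 65 passed only in the main fit, and 2 changed sign. Most of these genes did not pass in the main fit. Leaving out a library outside a comparison does not move its estimate, so the count is no measure of stability. The causes were not tested. Fitting only the groups compared gave no other value where all 4 groups enter.

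Replicate numbers were tried as a block. Same-numbered libraries deviated together weakly (r between -0.207 and 0.354 in 18 pairs, median 0.178, 11 over 0.1), and 10 of 12 libraries correlated best with their own number, so the pairing is a hint from the data only. Limma with the block called 0 members in every comparison, 12 of all genes with QTP averaged and 90 in Combo against Con, in place of 0. Voom with the block called 7 members higher with QTP averaged (81 of all genes called), 6 in Combo against IR (46) and 3 in Combo against Con (286). Depth limits GGPS1 (136 to 259 reads per library) and PMVK (199 to 278) most.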
